A study of Homo sapiens with 6 samples.

Results

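The aminoacyl-tRNA synthetase genes of SW480 cells were examined, 38 gene symbols of the 56303 in the count table. They were found by name: the letter of an amino acid followed by ARS, with or without a final digit, together with EPRS, FARSA, FARSB, FARS2, TARSL2 and EARS2. Where older and newer spellings differ, the table used the older one (SARS for SARS1, LARS for LARS1). A symbol ending in 2 was counted as mitochondrial, which gave 17 mitochondrial and 21 cytosolic genes. TARSL2, whose symbol also ends in 2, was kept with the cytosolic genes because the mitochondrial enzyme for threonine is TARS2. SW480 is an established line of human colon adenocarcinoma cells. The cells carried a lentiviral non-silencing hairpin (shCtrl, 3 libraries) or a lentiviral hairpin against the RNA-binding splicing factor RBM39 (shRBM39, 3 libraries), with no other treatment named, and mRNA was sequenced to ask what depletion of RBM39 changes. According to the study's methods, stable clonal lines were selected with puromycin, so a property of a clone and an effect of the hairpin cannot be told apart. P-values measure the spread between these 3 libraries of a group, which may be technical.

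Aminoacyl-tRNA synthetases join each amino acid to its tRNA, the step that supplies the ribosome with charged tRNA. Cytosolic and mitochondrial protein synthesis use separate sets of these enzymes, nearly all encoded by separate nuclear genes. Several cytosolic synthetases sit together with 3 scaffold proteins in the multi-synthetase complex. The transcription factor ATF4, which is made in quantity when amino acids run short or eIF2 is phosphorylated, is known to drive many cytosolic synthetase genes.

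The libraries held between 18042924 and 20428901 counts. Levels are given in CPM, the counts of a gene relative to those of its library, scaled between libraries with TMM factors that correct for shifts in composition. A gene was called when its p, adjusted by Benjamini-Hochberg over 18243 tested genes, was under 0.05 in the quasi-likelihood test of edgeR. RBM39 stood at 441, 448 and 435 CPM in shCtrl and at 266, 276 and 292 CPM in shRBM39, a fall of 37.0% without overlap between the groups (log2 fold change -0.67 ± 0.04 SE, adjusted p = 1.24e-16). All 7 colon epithelial markers had counts, with a summed level of 10900 to 11700 CPM in shCtrl and 13900 to 14400 CPM in shRBM39. Of these 7, 3 were higher, 3 lower and 1 not called, from -2.13 for CDX2, an intestinal transcription factor, to 1.82 for KRT20 on the log2 fold change scale, with a median of 0.02. KRT20 was near the floor, with 11, 5 and 3 counts in shCtrl and 18, 25 and 19 in shRBM39. The leukocyte marker PTPRC was at 0 in every library, and the 4 leukocyte markers summed to 15.4 to 16.3 CPM in shCtrl and 16.2 to 17.4 CPM in shRBM39. Endothelial markers summed to 3.47 to 4.58 and 6.45 to 7.96 CPM, and fibroblast markers to 6.85 to 7.16 and 9.6 to 12.5 CPM. The part of these marker levels in the synthetase results was not tested.

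Most cytosolic synthetase mRNAs were lower in shRBM39, and 0 mitochondrial synthetase mRNAs were called lower in the main edgeR fit or by DESeq2 (1 and 0 at an unadjusted p under 0.05). Of the 21 cytosolic genes, 12 were lower, 7 were higher and 2 were not called. Of the 17 mitochondrial genes, 7 were higher and 10 were not called. Over all tested genes 59.1% were called, 29.2% as higher and 29.9% as lower, so a called gene alone was common in this comparison. All 38 members passed the filter on low counts, and 26 of them were called. The median log2 fold change was -0.15 over the cytosolic genes and 0.09 over the mitochondrial genes, beside -0.01 over all tested genes. With library totals in place of TMM factors, the median over all tested genes moved to -0.14, the cytosolic median to -0.27 and the mitochondrial median to -0.04. Other edgeR fits called TARS2 lower, as the 1 mitochondrial gene: upper-quartile scaling, at least 10 counts in every library, and the GC and length correction. The same was found without shRBM39 replicate 2. With library totals 3 mitochondrial genes, CARS2, IARS2 and TARS2, were called lower, and limma on RPKM called IARS2 and TARS2 lower. With library totals the split of called members moved from 14 higher and 12 lower to 8 higher and 16 lower, and the share of called genes that were higher moved from 49.4% to 33.9%. In bulk RNA, fewer cells of a type and less RNA per cell cannot be told apart.

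Larger changes were counted next. A log2 fold change of -0.5 or lower with a call was found for 5 members, SARS, LARS, EPRS, MARS and CARS, all of them cytosolic, and for 14% of all tested genes. A log2 fold change of 0.5 or higher with a call was found for 3 members, the mitochondrial EARS2 and YARS2 and the cytosolic HARS, and for 11.4% of all tested genes. Neither count was far from its share over all genes. The libraries of the groups did not overlap for 26 of the 38 members, beside 63.3% of all tested genes. These 26 comprised 18 of 21 cytosolic and 8 of 17 mitochondrial genes.

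**Figure D1:**
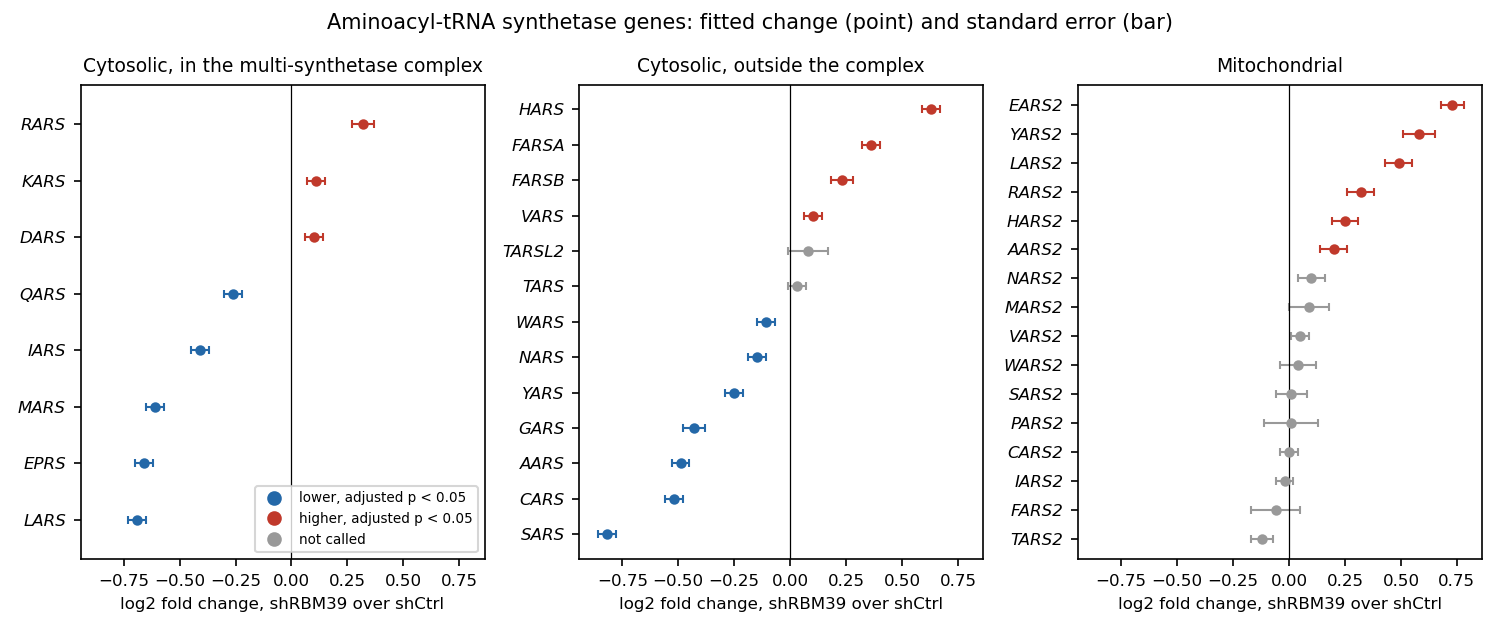
Fitted log2 fold change of each synthetase gene (horizontal axis, shRBM39 over shCtrl; points) with its standard error (bars), in panels for the complex, the other cytosolic and the mitochondrial genes. Blue points were called lower, red points higher and grey points were not called. No point in the mitochondrial panel is blue, and SARS at -0.82 and EARS2 at 0.73 mark the ends of the range, while KARS, DARS, VARS and the 8 grey points above 0 fall below it with library totals.

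Summed over genes, cytosolic synthetase mRNA fell from 4819 ± 62.6 CPM (SD, n = 3) in shCtrl to 4004 ± 153 CPM (SD, n = 3) in shRBM39, a decrease of 16.9%, with no p given for a sum over chosen genes. The libraries stood at 4885, 4811 and 4760 CPM in shCtrl and at 3840, 4143 and 4030 CPM in shRBM39, and the groups did not overlap. With library totals the change of the cytosolic sum was -23.7%. A large part of the fall in CPM lay in AARS (mean 903 to 644 CPM) and SARS (527 to 298 CPM), while 7 of 21 cytosolic genes were called higher. Mitochondrial synthetase mRNA summed to 525, 527.1 and 538.5 CPM in shCtrl and to 589.3, 588.2 and 589.8 CPM in shRBM39. This is a difference of 11.1% upward on the TMM scale, and of 1.99% upward with library totals. The ratio of the cytosolic to the mitochondrial sum, which no scaling between libraries can alter, was 9.3, 9.13 and 8.84 in shCtrl and 6.52, 7.04 and 6.83 in shRBM39. Among the shRBM39 libraries, replicate 1 had the lowest ratio and replicate 2 the highest.

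The multi-synthetase complex was examined by member. Of its 8 synthetase genes, 5 fell and 3 rose, and the median log2 fold change was -0.34. With DESeq2 2 were called higher, and with upper-quartile scaling or library totals 1, while 5 were called lower in each. LARS, the leucine enzyme (chromosome 5, 146113038 to 146182660, minus strand, GRCh38), stood at 238, 229 and 236 CPM in shCtrl and at 139, 148 and 147 CPM in shRBM39. The groups were far apart, and the log2 fold change was -0.69 ± 0.04 SE (adjusted p = 4.01e-17). EPRS, which carries the glutamate and the proline activity on 1 polypeptide (chromosome 1, 219968601 to 220046658, minus strand), stood at 235, 246 and 239 CPM in shCtrl and at 146, 159 and 152 CPM in shRBM39. Its log2 fold change was -0.66 ± 0.04 SE (adjusted p = 2.63e-16), again with no overlap. MARS, the methionine enzyme (chromosome 12, 57475445 to 57517569, plus strand), stood at 142, 145 and 134 CPM in shCtrl and at 86.6, 98.9 and 91.4 CPM in shRBM39. It fell by 34.3%, a log2 fold change of -0.61 ± 0.04 SE (adjusted p = 7.61e-14). Of the MARS exon bases, 12.4% lie under exons of ARHGAP9 and DDIT3 on the opposite strand, and the strand setting of the counting is not given in the sources used here. DDIT3 was itself lower in shRBM39, at -1.22 (adjusted p = 1.45e-16), and its part in the MARS value was not tested. Among the complex genes the fall was smaller for IARS, the isoleucine enzyme, at -0.41 (adjusted p = 4.33e-11), and for QARS, the glutamine enzyme, at -0.26 (adjusted p = 3.14e-07).

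The other members of the complex were higher in shRBM39. RARS, the arginine enzyme, rose from 43.9 ± 1.76 to 54.7 ± 1.37 CPM (SD, n = 3 each), a log2 fold change of 0.32 ± 0.05 SE (adjusted p = 5.95e-07). KARS, the lysine enzyme, whose gene supplies both compartments through alternative splicing, stood at 443, 425 and 442 CPM in shCtrl and at 464, 472 and 477 CPM in shRBM39. The groups did not overlap, but the log2 fold change was only 0.11 ± 0.04 SE (adjusted p = 0.0102), and it was -0.02 with library totals. The call of KARS was also lost with upper-quartile scaling (adjusted p = 0.0755). DARS, the aspartate enzyme, ranged from 129 to 145 CPM in shCtrl and from 142 to 158 CPM in shRBM39. Its libraries overlapped, and its log2 fold change of 0.10 (adjusted p = 0.0412) turned to -0.02 with library totals. The call of DARS was also lost with DESeq2 (adjusted p = 0.0655), upper-quartile scaling (adjusted p = 0.169) and at least 10 counts in every library (adjusted p = 0.0567).

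LARS was also 1 of 3 synthetase genes with a record in the deposited splicing table, which lists 1582 alternative splicing events. In each listed record the mean inclusion levels of the compared groups differ by at least 0.1. Every listed record therefore shows a difference, and these records are described without a test. The table names its groups only 1 and 2 and does not say which is the knockdown. The LARS record is a cassette exon, exon 13 of 32, chr5:146153174-146153227 on the minus strand of GRCh38. It is shown in capitals with 20 bases of intron on each side, because its 54 bases are all coding and make up 18 whole codons, so that skipping keeps the reading frame:
LARS exon 13: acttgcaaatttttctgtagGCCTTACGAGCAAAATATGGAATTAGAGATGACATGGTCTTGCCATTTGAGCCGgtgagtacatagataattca

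The intron before this exon ends in AG after a run rich in T, and the intron after it begins with GT, the usual splice site bases. Group 1 had 167, 169 and 165 inclusion reads against 24, 29 and 21 skipping reads, with listed inclusion levels of 0.831, 0.805 and 0.847. Group 2 had 309, 318 and 290 inclusion reads against 8, 7 and 10 skipping reads, with listed levels of 0.965, 0.97 and 0.953. The levels did not overlap. As a share of reads, inclusion was 85.35% to 88.71% in group 1 (exact 95% Clopper-Pearson bounds over the samples 79.65% to 92.87%) and 96.67% to 97.85% in group 2 (93.96% to 99.13%). These intervals cover counting error only, since reads of a PCR-amplified library need not be independent molecules. The exon was thus the major form in every sample of both groups.

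Outside the complex, 13 cytosolic genes were measured, of which 7 fell, 4 rose and 2 were not called, with a median log2 fold change of -0.11. SARS, the serine enzyme (chromosome 1, 109213918 to 109238169, plus strand), had the lowest log2 fold change of all 38 genes. It stood at 558, 512 and 511 CPM in shCtrl and at 285, 320 and 289 CPM in shRBM39. Each shRBM39 library was thus far below each shCtrl library, and the fall was 43.5% (log2 fold change -0.82 ± 0.04 SE, adjusted p = 7.33e-18). CARS, the cysteine enzyme (chromosome 11, 3000922 to 3057613, minus strand), stood at 229, 220 and 221 CPM in shCtrl and at 143, 165 and 160 CPM in shRBM39, with no overlap. Its log2 fold change was -0.52 ± 0.04 SE (adjusted p = 1.47e-12).

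AARS, the alanine enzyme and the synthetase gene with the most counts, fell from 903 ± 15.3 to 644 ± 41 CPM (SD, n = 3 each), a log2 fold change of -0.49 (adjusted p = 1.21e-12). GARS, the glycine enzyme, whose gene also supplies both compartments, stood at 266, 264 and 260 CPM in shCtrl and at 176, 213 and 197 CPM in shRBM39. Its log2 fold change was -0.43 ± 0.05 SE (adjusted p = 3.55e-10), so this dual-use gene fell while KARS did not. Lesser falls were found for YARS, the tyrosine enzyme, at -0.25 (adjusted p = 3.87e-06), for NARS, the asparagine enzyme, at -0.15 (adjusted p = 0.0014) and for WARS, the tryptophan enzyme, at -0.11 (adjusted p = 0.0273). The call of WARS was lost with DESeq2 (adjusted p = 0.103), with no filter on low counts (adjusted p = 0.0728) and with the GC and length correction (adjusted p = 0.0558).

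Higher cytosolic genes were led by histidine and phenylalanine. HARS, the histidine enzyme (chromosome 5, 140673173 to 140692024, minus strand), stood at 108, 101 and 105 CPM in shCtrl and at 166, 165 and 155 CPM in shRBM39. It rose by 54.5% (log2 fold change 0.63 ± 0.04 SE, adjusted p = 2.28e-15), and the groups did not overlap. FARSA and FARSB encode the alpha and beta subunits of the phenylalanine enzyme, which works as a tetramer of both. FARSA stood at 134, 124 and 123 CPM in shCtrl and at 163, 163 and 162 CPM in shRBM39 (log2 fold change 0.36 ± 0.04 SE, adjusted p = 9.92e-10). FARSB stood at 48.7, 48.7 and 50.1 CPM in shCtrl and at 55.8, 58.1 and 58.9 CPM in shRBM39 (log2 fold change 0.23 ± 0.05 SE, adjusted p = 5.61e-05). Both subunit mRNAs therefore rose, with no overlap between groups. VARS, the valine enzyme, had a log2 fold change of 0.10 (adjusted p = 0.0359) that turned to -0.03 with library totals. The call of VARS was also lost with upper-quartile scaling (adjusted p = 0.168) and at least 10 counts in every library (adjusted p = 0.0507). The threonine genes were not called: TARS was at 0.03 (adjusted p = 0.53), and TARSL2 was at 10.7, 10.6 and 9.89 CPM in shCtrl and at 10.5, 10.8 and 11.5 CPM in shRBM39, with overlap (log2 fold change 0.08 ± 0.09 SE, adjusted p = 0.467).

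**Figure D2:**
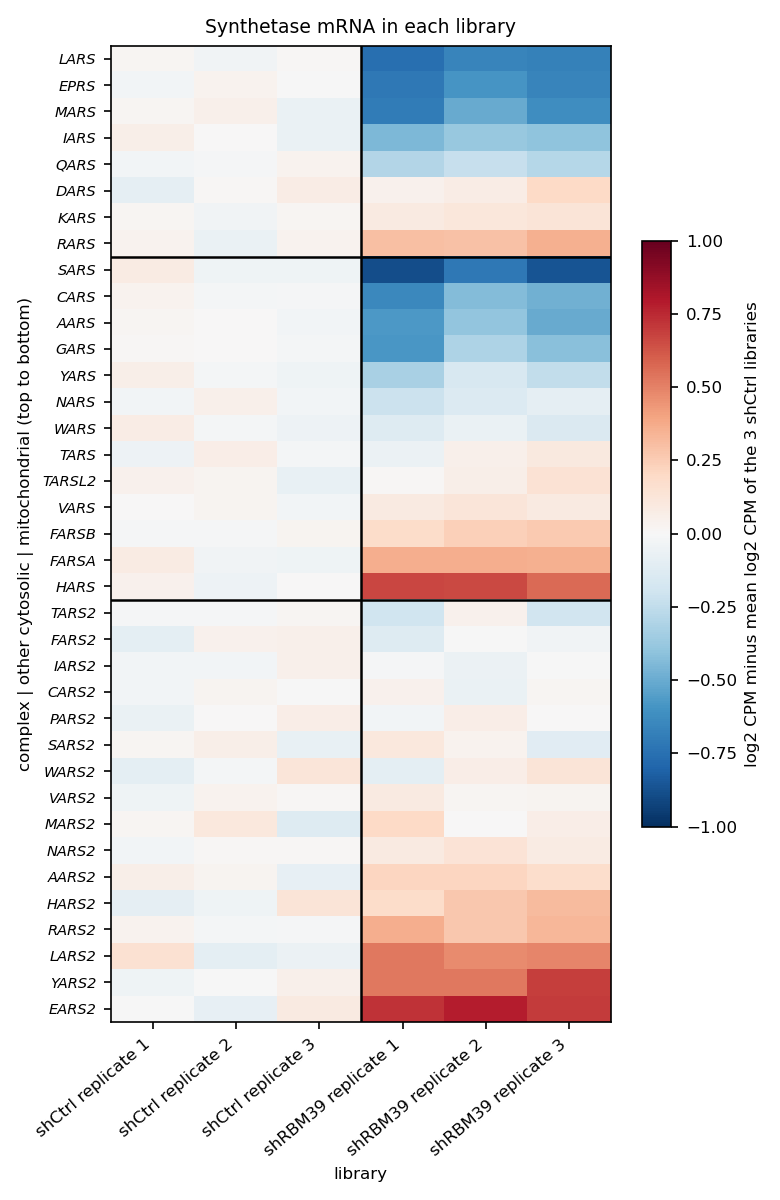
Level of each synthetase mRNA (rows) in each library (columns), as log2 CPM minus the mean log2 CPM of the 3 shCtrl libraries, with blue for lower and red for higher values. Horizontal lines part the complex, other cytosolic and mitochondrial genes, and the vertical line parts shCtrl from shRBM39. The dark blue cells of LARS, EPRS, MARS and SARS and the dark red cells of HARS, YARS2 and EARS2 are seen in all 3 shRBM39 libraries. Among these libraries, the cytosolic genes called lower, all but WARS, were lowest in replicate 1.

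Of the mitochondrial genes that rose, EARS2 led. EARS2, which charges mitochondrial tRNA with glutamate (chromosome 16, 23522014 to 23557731, minus strand), stood at 30.2, 28.6 and 32.2 CPM in shCtrl and at 50.1, 52.1 and 49.2 CPM in shRBM39. It had the highest log2 fold change of the 38 genes, 0.73 ± 0.05 SE (adjusted p = 3.25e-14), a rise of 66.2% with a wide gap between the groups. YARS2, the tyrosine enzyme (chromosome 12, 32727490 to 32755902, minus strand), stood at 14.8, 15.2 and 15.8 CPM in shCtrl and at 22, 22 and 24.6 CPM in shRBM39. It rose without overlap (log2 fold change 0.58 ± 0.07 SE, adjusted p = 8.02e-09). LARS2, the leucine enzyme (chromosome 3, 45388506 to 45549421, plus strand), stood at 30.4, 25.5 and 26.2 CPM in shCtrl and at 39.4, 37.8 and 38.3 CPM in shRBM39. Its log2 fold change was 0.49 ± 0.06 SE (adjusted p = 7.22e-09), opposite in direction to its cytosolic counterpart.

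RARS2, the arginine enzyme, rose by 0.32 on the log2 scale (adjusted p = 8.44e-06). HARS2, the histidine enzyme (chromosome 5, 140691426 to 140699291, plus strand), stood at 31.5, 32.5 and 36.6 CPM in shCtrl and at 38, 40.3 and 41.6 CPM in shRBM39. The groups did not overlap, and the log2 fold change was 0.25 ± 0.06 SE (adjusted p = 0.000235). AARS2, the alanine enzyme, rose by 0.20 on the log2 scale (adjusted p = 0.00336). The calls of HARS2 and AARS2 were not made with library totals.

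The 10 mitochondrial genes without a call lay between -0.12 and 0.10 on the log2 fold change scale. NARS2 (asparagine) was at 0.10, MARS2 (methionine) at 0.09, VARS2 (valine) at 0.05, WARS2 (tryptophan) at 0.04, and PARS2 (proline) and SARS2 (serine) were both at 0.01. CARS2 (cysteine) was at 0.00, IARS2 (isoleucine) at -0.02, FARS2 (phenylalanine) at -0.06 and TARS2 (threonine) at -0.12. With library totals all 10 values were below 0. TARS2 came nearest to a call (adjusted p = 0.0602), with 42.5, 50.4 and 42.8 CPM in shRBM39 and 48.6, 48.6 and 49.5 CPM in shCtrl. Its replicate 2 in shRBM39 stood above all shCtrl libraries. Without that library TARS2 was called lower, at -0.19 (adjusted p = 0.00318), and it was also called lower with upper-quartile scaling (-0.15), library totals (-0.24), at least 10 counts in every library (-0.12), the GC and length correction (-0.14) and limma on RPKM with both pseudocounts (-0.22 and -0.24). Over these alternatives its adjusted p ran from 0.000243 to 0.041.

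HARS and HARS2 are neighbours that face away from each other, and their exons share 592 bases on opposite strands. Overlap with other listed genes covered 18.3% of HARS and 21.8% of HARS2 exon bases, including the genes WDR55, DND1 and ZMAT2. Reads of this stretch cannot be assigned to a strand without the counting setting, so the values of both genes are uncertain to that extent. Exons of other genes also cover 57.0% of the SARS2 exon bases and 22.0% of those of VARS2. For VARS2 (with GTF2H4) and most of the SARS2 overlap these genes lie on the same strand, where a strand setting could not part the reads, so these values are uncertain as well.

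The HARS2 record in the splicing table is a cassette exon, exon 7 of 13, chr5:140696103-140696201 on the plus strand of GRCh38. It is printed for comparison with the LARS exon, since its 99 coding bases also make up whole codons, 33 in all. Capitals mark the exon and lower case the 20 intron bases on each side:
HARS2 exon 7: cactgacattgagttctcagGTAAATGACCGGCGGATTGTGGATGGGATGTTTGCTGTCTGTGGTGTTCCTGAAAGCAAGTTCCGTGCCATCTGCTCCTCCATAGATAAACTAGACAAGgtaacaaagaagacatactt

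Group 1 had 49, 65 and 67 inclusion reads against 7, 4 and 6 skipping reads, with listed levels of 0.799, 0.902 and 0.864. Group 2 had 67, 60 and 71 inclusion reads against 0, 3 and 0 skipping reads, with listed levels of 1.0, 0.919 and 1.0. The lowest level of group 2 was only just above the highest of group 1. With 3 reads taken as the limit that a count of 0 allows, the share of skipping reads could be up to 4.478% of 67 and 4.225% of 71 reads, for counting error only. The record of TARSL2, exon 17 of 19 (chr15:101657785-101657857, minus strand), rested on 6 to 16 reads per sample. Its levels ran from 0.818 to 1.0 in group 1 and from 0.39 to 1.0 in group 2 and overlapped. The mean levels were 0.939 and 0.758, and the difference was not tested. Of the other genes examined around the synthetases, AARSD1, an alanyl-tRNA editing factor, was the only one with records, 2 in number.

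**Figure D3:**
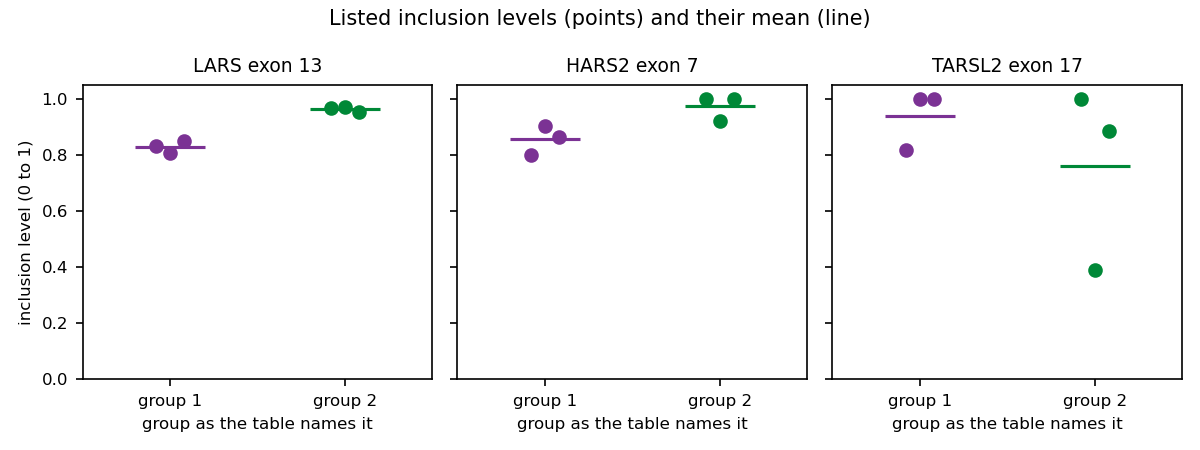
Listed inclusion levels (vertical axis, from 0 for always skipped to 1 for always included) of the cassette exons of LARS, HARS2 and TARSL2 in groups 1 and 2 as the splicing table names them. Points are the 3 values of a group and lines their mean. The groups are apart for LARS (0.805 to 0.847 and 0.953 to 0.97), close for HARS2 and overlapping for TARSL2.

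Cytosolic and mitochondrial enzymes for the same amino acid were then set side by side, which gave 18 pairs with EPRS, FARSA, FARSB and FARS2 entering as often as their amino acid requires. The cytosolic gene had the lower log2 fold change in 12 pairs and the higher in 5, and the arginine pair was equal at 0.32. Pairs whose ratio of cytosolic to mitochondrial level overlapped between the groups included those for tryptophan, threonine, valine and arginine. The difference between the log2 fold changes, which is free of scaling between libraries, was -1.39 for EPRS and EARS2 and -1.19 for LARS and LARS2. It was -0.83 for SARS and SARS2 and for YARS and YARS2, and -0.69 for AARS and AARS2 and for MARS and MARS2. The pairs with the cytosolic gene above were FARSA and FARS2 at 0.42, HARS and HARS2 at 0.37, FARSB and FARS2 at 0.29, TARS and TARS2 at 0.15 and VARS and VARS2 at 0.05. No test was run on these differences, and the SE of each gene is drawn in the plot of pairs.

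Per length, as RPKM (reads scaled by gene length and library depth), the cytosolic gene was above its counterpart in every pair and in both groups. For IARS over IARS2 the margin was small, with a ratio of 1.35 in shCtrl and 1.03 in shRBM39. The length is that of all listed exons of a gene together, which need not be the length of its main mRNA. The ratio of RPKM levels went from 8.31 to 3.17 for EPRS over EARS2 and from 5.69 to 2.5 for LARS over LARS2. For SARS over SARS2 it went from 21.3 to 12, and for AARS over AARS2 from 32.7 to 20.3. In the arginine pair it was 1.27 in both groups.

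**Figure D4:**
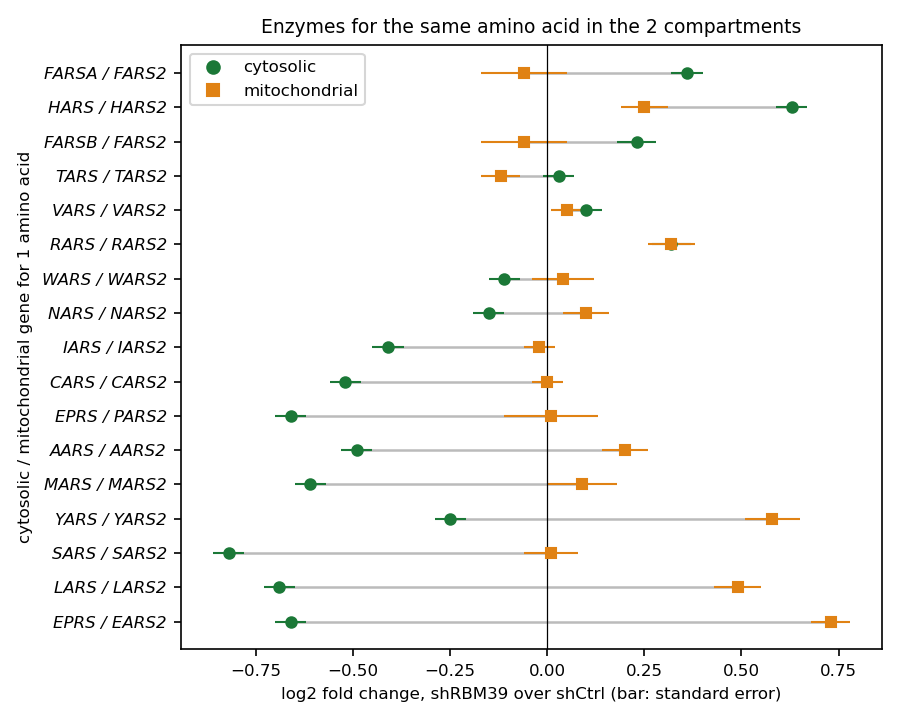
Fitted log2 fold change (horizontal axis, shRBM39 over shCtrl) of the cytosolic gene (green circle) and the mitochondrial gene (orange square) for the same amino acid, with standard errors as bars and a grey line between them, ordered by their difference. Pairs with the cytosolic circle to the left fill the lower part of the plot, with the longest line for EPRS and EARS2 (-0.66 and 0.73), and in the arginine pair the square hides the circle at 0.32.

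Synthetase levels per length were described in shCtrl. AARS had the highest level of the 38 genes at 201 ± 3.4 RPKM, followed by SARS at 137 ± 7.08 and KARS at 107 ± 2.42 RPKM (SD, n = 3 each). TARS at 67.3 ± 2.79 and GARS at 63.4 ± 0.684 RPKM came next and differed by little more than the larger SD. The lowest levels were those of FARS2 at 2.8 ± 0.156, TARSL2 at 2.26 ± 0.0913 and PARS2 at 2.11 ± 0.0967 RPKM. The highest mitochondrial gene was IARS2, at 19.1 ± 0.601 RPKM. The 12 cytosolic genes called lower had a median of 31.9 RPKM (12.4 to 201), and the 7 called higher a median of 17.5 RPKM (12.4 to 107). Across genes, the log2 fold change and the level had a Spearman correlation of -0.32 over the 21 cytosolic genes, -0.01 over the 17 mitochondrial genes and 0.13 over all tested genes. The correlation with GC content was -0.04 and -0.18 in the 2 sets, and that with exon length -0.35 and -0.02. All points of a correlation share the same 6 libraries, and genes are not independent replicates.

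The enzymes also divide by fold into class I and class II, which differ in the architecture of the catalytic site. Among cytosolic genes, class I had 7 lower and 2 higher of 9 (median log2 fold change -0.26), and class II had 4 lower, 5 higher and 2 not called of 11 (median 0.08). EPRS holds a domain of each class and was left out. Among mitochondrial genes, class I had 4 higher of 9 and class II 3 higher of 8, with medians of 0.09 and 0.06. The difference between classes was not tested.

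The mRNAs of the scaffold proteins of the multi-synthetase complex were higher in shRBM39. AIMP1 stood at 36.4, 38.1 and 36.5 CPM in shCtrl and at 44.7, 42.6 and 44.8 CPM in shRBM39 (log2 fold change 0.25 ± 0.05 SE, adjusted p = 4.62e-05). AIMP2 stood at 30.5, 31.6 and 31.1 CPM in shCtrl and at 38.2, 37.9 and 38.1 CPM in shRBM39 (log2 fold change 0.29 ± 0.05 SE, adjusted p = 8.69e-06). EEF1E1, which encodes AIMP3, stood at 30.3, 25.8 and 27.3 CPM in shCtrl and at 34.5, 33.8 and 41.5 CPM in shRBM39 (log2 fold change 0.40 ± 0.07 SE, adjusted p = 4.35e-06). The 3 scaffold mRNAs rose without overlap, and with library totals they remained above 0, at 0.13, 0.17 and 0.28.

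The scaffold genes belong to a list of 12 partners in tRNA charging, of which 4 rose, 4 fell and 4 were not called (median log2 fold change 0.00). The fourth that rose was GATB, a subunit of the mitochondrial amidotransferase that makes glutaminyl-tRNA from the glutamyl-tRNA charged by EARS2. GATB stood at 38.6, 38.8 and 44.2 CPM in shCtrl and at 56.7, 58.4 and 53.4 CPM in shRBM39 (log2 fold change 0.47 ± 0.05 SE, adjusted p = 1.7e-09). Its partner subunits had other values: QRSL1 fell by 0.23 on the log2 scale (adjusted p = 0.00371) and GATC was at 0.03 (adjusted p = 0.579). SEPSECS, which completes selenocysteine on tRNA charged by the serine enzyme, stood at 5.36, 5.18 and 5.76 CPM in shCtrl and at 3.06, 2.61 and 3.82 CPM in shRBM39. It fell without overlap (log2 fold change -0.77 ± 0.14 SE, adjusted p = 1.81e-05). PSTK, the kinase of the step before it, was at -0.04 (adjusted p = 0.815). AARSD1 fell by 0.24 and DTD1, a deacylase for wrongly charged tRNA, fell by 0.23 on the log2 scale (adjusted p = 0.00105 and 3.48e-05). DTD2, a related deacylase, was at -0.08 and MTFMT, which formylates mitochondrial initiator tRNA, at 0.21 (adjusted p = 0.516 and 0.111).

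Elongation factors, which carry charged tRNA to the ribosome, were examined in a list of 7, of which 4 rose and 3 fell (median log2 fold change 0.11, and -0.01 with library totals). EEF1A1, the main cytosolic carrier, stood at 6700, 6450 and 6740 CPM in shCtrl and at 5060, 5270 and 5370 CPM in shRBM39 (log2 fold change -0.34 ± 0.04 SE, adjusted p = 5.71e-10). EEF1A2, its tissue-restricted paralog, stood at 91.9, 83.7 and 93.8 CPM in shCtrl and at 129, 137 and 126 CPM in shRBM39 (log2 fold change 0.54 ± 0.04 SE, adjusted p = 1.25e-12). The paralogs thus moved in opposite directions, and the treatment of reads shared by them is not given in the sources used here. TUFM and TSFM, the mitochondrial carrier and its exchange factor, rose by 0.30 and 0.52 on the log2 scale (adjusted p = 1.23e-08 and 4.39e-10). EEF1D and EEF1G, subunits of the cytosolic exchange factor, fell by 0.20 and 0.21 (adjusted p = 2.16e-05 and 6.76e-06). A further subunit, EEF1B2, was at 0.11 (adjusted p = 0.0135) and at -0.01 with library totals.

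**Figure D5:**
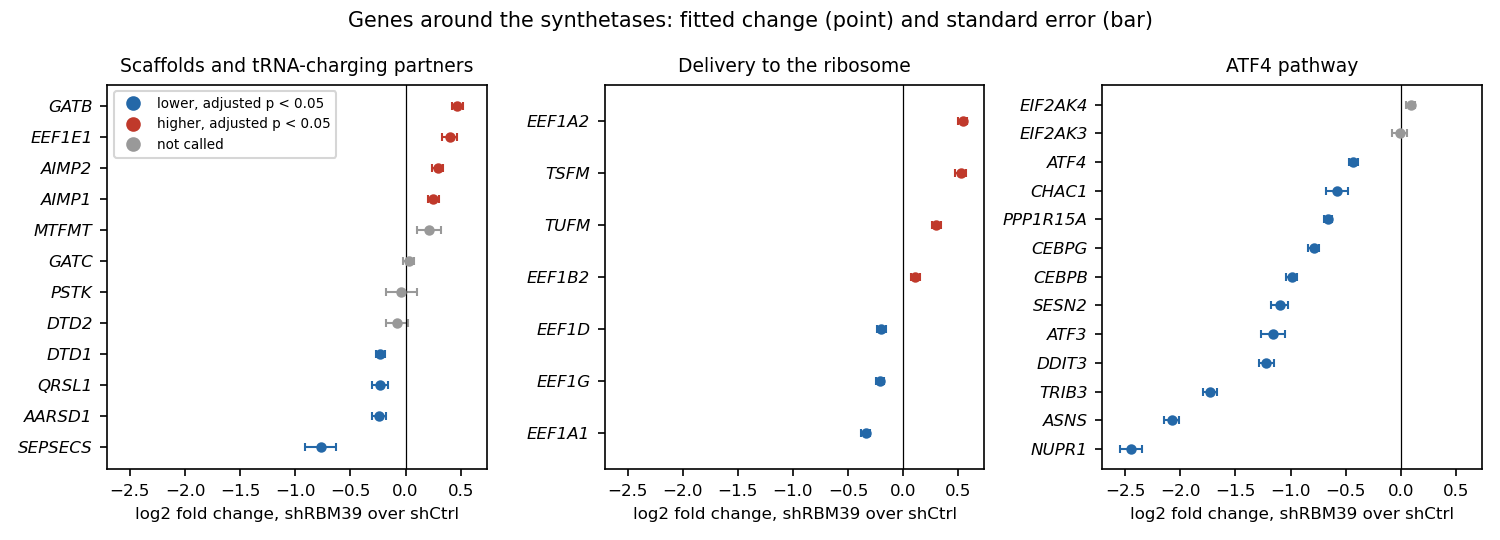
Fitted log2 fold change (horizontal axis, shRBM39 over shCtrl; points) with standard error (bars) of genes around the synthetases, in panels for partners, delivery factors and the ATF4 pathway. Blue points were called lower, red higher, and grey were not called. GATB and SEPSECS lie at the ends of the partner panel (0.47 and -0.77), EEF1B2 at 0.11 is the red point that library totals put below 0, and 11 of 13 points in the ATF4 panel are blue, down to NUPR1 at -2.45.

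Genes of the ATF4 pathway were given for comparison, since ATF4 is a known regulator of synthetase genes. This list was chosen with earlier results of these data known, so its counts are a description only. Over all tested genes 29.9% were called lower and 29.2% higher. Of 13 listed genes, 11 fell, 0 rose in edgeR or in DESeq2 (1 and 0 at an unadjusted p under 0.05), and 2 were not called, with a median log2 fold change of -0.99. ATF4 itself stood at 900, 928 and 926 CPM in shCtrl and at 637, 714 and 700 CPM in shRBM39 (log2 fold change -0.43 ± 0.04 SE, adjusted p = 2.89e-11). NUPR1, a stress-induced transcriptional regulator, stood at 36.8, 48.2 and 41.2 CPM in shCtrl and at 6.43, 9.41 and 7.38 CPM in shRBM39 (log2 fold change -2.45 ± 0.10 SE, adjusted p = 2.75e-21). ASNS, which makes asparagine, was at -2.08 and TRIB3, a pseudokinase that feeds back on ATF4, at -1.73. Those not called were the eIF2 kinases EIF2AK3 (log2 fold change -0.01, adjusted p = 0.9) and EIF2AK4 (0.09, adjusted p = 0.0619). Whether the ATF4 genes had a part in the synthetase values was not tested.

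Promoter windows of the synthetase genes were searched for TGATGNAA, the core of the C/EBP-ATF response element to which ATF4 binds with C/EBP partners, on both strands in the 250 bases before a RefSeq start on GRCh38. Windows were at hand for 30 of the 38 genes. The letters were found in 4 of the 30 (13.33%) and in 1061 of 27305 genes of the whole table (3.89%). Counted by window, they were found in 4 of 39 (10.26%) and in 1104 of 35116 (3.14%). A match describes these letters and not a bound site. Of the 4 matches, 3 belong to cytosolic genes that fell, and the other to a mitochondrial gene that rose. Among all members, 12 of 21 cytosolic genes fell and 7 of 17 mitochondrial genes rose. Whether the motif had a part in the synthetase values was not tested. All 4 matches are shown so that their letters can be compared, with the motif in capitals. Each is written on the strand of the gene, so that an antisense match appears as the reverse complement:
AARS, chr16:70289675-70289704, minus strand: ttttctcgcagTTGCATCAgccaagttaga
IARS, chr9:92293698-92293721, minus strand: ttttcagcgcgTTGCATCAcctcc
GARS, chr7:30594834-30594863, plus strand: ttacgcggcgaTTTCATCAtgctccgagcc
YARS2, chr12:32756076-32756105, minus strand: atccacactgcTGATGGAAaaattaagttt

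The match begins 187 bases before the start in AARS, 13 in IARS and 33 in GARS, each in the antisense form, and 197 bases before it in YARS2. AARS and IARS carry the same 8 letters. The IARS and GARS windows lie inside the gene as the count table bounds it, before a start further downstream. AARS, IARS and GARS were lower in shRBM39, at -0.49, -0.41 and -0.43 on the log2 fold change scale, and the mitochondrial YARS2 was higher, at 0.58. SARS, with the lowest log2 fold change, was not among the genes with a match, and whether it had a window to search is not given here.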

How the data were processed

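SW480 mRNA was sequenced in 3 shCtrl and 3 shRBM39 libraries made with a stranded mRNA kit and unique identifiers. Raw counts for each gene symbol, in a featureCounts layout, were deposited by the authors. Submitters' processing notes name Trimmomatic 0.36, STAR 2.5.3a, featureCounts in Subread 1.5.1, edgeR 3.12.1 and GRCh38. The strand setting, the treatment of multi-mapped reads, collapsing of identifiers and the annotation release are not given in the sources used here, and they affect overlapping genes and paralogs. The authors also deposited RPKM values, which were recomputed from the counts within a relative difference of 1.2e-13. Columns named NC were read as shCtrl, the only control of the series. Splicing records are rMATS output as deposited, with reads and inclusion fractions per sample for groups 1 and 2. Its columns of p-values, FDR and differences and a tally of events are the authors' own comparison and were not used.

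Counts were fitted with edgeR 4.0.16 in R 4.3.3: filterByExpr, TMM, quasi-likelihood testing of group alone, and Benjamini-Hochberg adjusted p under 0.05 among 18243 genes. RPKM values given for levels between genes carry the TMM factors, while limma used the deposited RPKM, which do not. No pair of replicates agreed within sampling noise (chi-square per degree of freedom 2.12 to 4.25), and the biological coefficient of variation was 0.035. Members and lists were chosen with earlier results of these data known. Every member has its log2 fold change in the text, except 1 that is counted in the totals but is not reported here or drawn in the plots. Values per library are given for the 5 highest and 5 lowest called members, GARS, KARS, EPRS, HARS, HARS2, FARSA, FARSB, TARSL2, the scaffold genes, ATF4 and the highest and lowest called gene of each other list. TARS2 was added after its values were seen. Other settings tried were library totals, upper-quartile scaling, DESeq2 1.42.0, a minimum of 10 counts per library or no filter, limma 3.58.1 on log2(RPKM + 1) and log2(RPKM + 0.1), a replicate block, each library left out, an adjusted p under 0.01, testing against 0.5 on the log2 scale, and a correction for GC content and length (99.9% of tested genes had a GC value). The fit was tested on simulated counts. Member coordinates are those of the count table, and promoter windows are from RefSeq.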

Additional observations from a re-analysis of the deposited data

How the results depend on the processing

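Scaling changed the sign of values near 0 and ended the calls of AARS2 and HARS2, which were at 0.08 and 0.13 with library totals and lost their calls under both limma settings too. The deposited RPKM values that limma used are counts scaled by gene length and library totals, without TMM factors. The library-total and both limma settings thus share 1 scaling and are not separate checks of it. The cause of each change was not tested. With library totals, with limma on log2(RPKM + 1) and with limma on log2(RPKM + 0.1), in this order, the genes called higher numbered 8, 8 and 8 in place of 14, and the mitochondrial genes called higher 4, 4 and 4 in place of 7. The median log2 fold change was -0.27, -0.27 and -0.27 over cytosolic genes, and over mitochondrial genes it turned to -0.04, -0.03 and -0.03 (0.06 with upper-quartile scaling). The log2 fold change turned to -0.02, -0.01 and -0.01 for KARS, to -0.02, -0.02 and -0.02 for DARS and NARS2, to -0.09, -0.09 and -0.09 for TARS, to -0.05, -0.03 and -0.05 for TARSL2, to -0.03, -0.03 and -0.03 for VARS, to -0.04, -0.03 and -0.03 for MARS2, to -0.11, -0.07 and -0.10 for PARS2, to -0.11, -0.10 and -0.11 for SARS2, to -0.08, -0.07 and -0.08 for VARS2 and to -0.09, -0.07 and -0.08 for WARS2. Upper-quartile scaling gave 0.00 for TARS and -0.02 for PARS2 and SARS2. The GC and length correction gave 0.09 for CARS2, -0.03 for PARS2 and SARS2 and 0.00 for WARS2, and CARS2 was at 0.01 with DESeq2 and with no filter. Tested against a log2 fold change of 0.5, 2 members were higher (HARS and EARS2, 1 of them mitochondrial) and 4 lower (SARS, LARS, EPRS and MARS, all 4 cytosolic), among 2232 genes in place of 10790. Leaving out each library gave medians of -0.18 to -0.11 (without shRBM39 replicate 1) for cytosolic and 0.09 to 0.11 for mitochondrial genes, and log2 fold changes of 0.00 to 0.08 for TARS, -0.02 to 0.03 for CARS2, -0.04 to 0.01 for IARS2, -0.01 to 0.05 for PARS2, -0.04 to 0.08 for SARS2 and -0.01 to 0.11 for WARS2. KARS lost its call without shCtrl replicate 2, DARS without shCtrl replicate 1 or 2 or shRBM39 replicate 3, VARS without shCtrl replicate 3 or shRBM39 replicate 2, and WARS without shCtrl replicate 1 or shRBM39 replicate 1 or 3. Replicate numbers did not pair the samples (correlations of same-numbered deviations 0.01, -0.03 and 0.00), and with a replicate block 14 members were higher and 12 lower, 7 of the mitochondrial genes were higher, 12 of the cytosolic genes were lower, and 10810 genes were called. The splicing and promoter values have no alternative.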
